A study of Homo sapiens with 6 samples.

Results

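Small nucleolar RNA (snoRNA) host genes were examined in HCT116 cells, a human colorectal cancer line, that had received either a control transfection (CTR) or mimics of the microRNA miR-8485. The 10 noncoding host genes were taken by symbol from the 58735 genes of the deposited expression table: GAS5, SNHG1, SNHG5, SNHG6, SNHG8, SNHG12, SNHG15, SNHG16, ZFAS1 and EPB41L4A-AS1. All 10 were listed once, and all 10 passed the filter on low values. None was chosen by a measured value, but the list was chosen with earlier results of these data known. The mimic group had received 50 nM of the mimic with the DMRIE-C reagent. Cells were collected after 48 h, and each group held 3 RNA-seq libraries described as independent biological replicates of the same line, with genotype WT in the labels of both groups. The nature and dose of the control RNA are not given in the sources used here. Expression was measured as FPKM, that is, fragments per kilobase of gene length scaled to the total of the library.

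Most human snoRNAs are cut from introns of longer host transcripts. Box C/D snoRNAs guide ribose methylation and box H/ACA snoRNAs guide pseudouridylation, mainly of ribosomal RNA. A noncoding host is spliced into an RNA that reads poorly into protein, and several of these spliced RNAs are known as substrates of nonsense-mediated decay, a translation-coupled pathway of RNA breakdown. Many host genes start transcription in a C followed by further pyrimidines, the terminal oligopyrimidine (TOP) start that is also typical of ribosomal protein genes and that ties translation of the RNA to growth signalling through mTORC1.

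The starts of the host genes are shown because the TOP start is the feature by which these genes resemble ribosomal protein genes. Promoters of 8 of the 10 were taken from RefSeq (GRCh38.p14). The starts of SNHG15 and SNHG6 were left out, so the counts of starts given below do not cover these genes. Each line gives 20 bases before and 40 bases from the annotated start on the gene's own strand, 5′ to 3′, with the longest run of C and T near the start in capitals.
GAS5 (chr1:173869006-173869065, minus strand): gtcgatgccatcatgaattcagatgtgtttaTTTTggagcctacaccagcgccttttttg
SNHG1 (chr11:62855846-62855905, minus strand): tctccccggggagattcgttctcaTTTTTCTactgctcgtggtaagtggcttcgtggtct
SNHG5 (chr6:85678694-85678753, minus strand): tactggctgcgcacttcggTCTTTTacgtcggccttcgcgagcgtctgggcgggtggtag
SNHG8 (chr4:118278742-118278801, plus strand): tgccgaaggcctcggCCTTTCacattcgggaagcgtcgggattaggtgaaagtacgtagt
SNHG12 (chr1:28581834-28581893, minus strand): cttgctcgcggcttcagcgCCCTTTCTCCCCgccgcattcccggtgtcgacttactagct
SNHG16 (chr17:76557744-76557803, plus strand): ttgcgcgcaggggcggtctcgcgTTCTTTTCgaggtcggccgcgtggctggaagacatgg
ZFAS1 (chr20:49278622-49278681, plus strand): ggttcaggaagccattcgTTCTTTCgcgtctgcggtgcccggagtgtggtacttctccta
EPB41L4A-AS1 (chr5:112160506-112160565, plus strand): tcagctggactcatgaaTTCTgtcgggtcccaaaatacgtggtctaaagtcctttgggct

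A C at the annotated start followed by at least 4 bases that are each C or T was found in SNHG5, SNHG12 and ZFAS1, that is, in 3 of the 8 starts. The same pattern stood at 4.04% of 27305 RefSeq starts, at 5.70% of the 8766 starts of tested genes and at 63.4% of the 71 starts of ribosomal protein genes. Within 10 bases before to 20 bases after the start, the pattern was present in 5 of the 8 host genes, with SNHG8 and SNHG16 added. It was present there in 38.2% of all starts, 37.4% of starts of tested genes and 84.5% of ribosomal protein starts. The search covered the gene's own strand only, and annotated starts are not exact. The RefSeq start of GAS5 lay 163 bases upstream of the start in the deposited table, while those of SNHG12 and ZFAS1, both with the pattern at the start, lay 1259 and 464 bases inside the listed gene. The mimic itself had the sequence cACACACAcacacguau, in which the capitals mark its seed, bases 2 to 8, by which a microRNA recognises its targets. The complement of the seed, TGTGTGT, occurred in the canonical GENCODE release 44 transcript of 2 host genes, SNHG8 and ZFAS1, with 1 copy each. Among all 758 tested long noncoding genes with a canonical transcript, 14.9% held it, and among the 599 whose transcripts were as long as those of the host genes, 498 to 6166 bases, 16.4% did. In any annotated transcript, it was present in 4 host genes, with SNHG1 and SNHG5 added, which have 80 and 89 annotated transcripts. The shares above refer to canonical transcripts only, and none was computed for any transcript. The canonical transcript of SNHG8 measured 6166 bases, against a gene length of 923 bases in the deposited file. That of ZFAS1 measured 4526 bases, against 2243 bases, so either copy may lie outside the measured exons.

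The 6 libraries held 17473874 to 18480047 fragments on listed genes, recovered from the FPKM values. CTR replicate 1 stood apart from its group: the chi-square per gene between its fragments and those of CTR replicates 2 and 3 was 12.5 and 9.97, against 2.89 to 4.31 for the other pairs within a group and 75.5 to 86.7 for pairs between groups. Mitochondrial genes took 7.94% of the fragments in CTR replicate 1, 9.50% and 10.2% in the other CTR libraries, and 10.6% to 11.3% in the miR-8485 libraries. Genes annotated as ribosomal RNA, mitochondrial ones included, took 1.06% to 1.18% in CTR and 1.39% to 1.43% in miR-8485, so the groups did not overlap, and the part of either share in the changes given here was not tested. The epithelial markers EPCAM, CDH1, KRT8, KRT18 and KRT19 were at 18.7 FPKM or more in every library, while VIL1, a marker of intestinal brush border, stayed at or below 0.0639 FPKM. The summed level of 7 markers of blood, vessel and stromal cells was 4.28 to 4.53 FPKM in CTR and 6.47 to 6.54 FPKM in miR-8485, nearly all of it COL1A1, and CD3E and DCN were at 0. MIR8485 was listed at 0 in all libraries.

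All 10 host genes were upregulated in the miR-8485 libraries, and none was downregulated. Among all 12349 tested genes, 29.1% were upregulated and 30.5% downregulated in the same limma fit with Benjamini-Hochberg adjustment. For each of the 10, the 3 miR-8485 libraries lay above the 3 CTR libraries, which held for 32.5% of all tested genes. The log2 fold changes ran from 0.40 for SNHG16 to 1.24 for SNHG8, with a median of 0.70, against a median of -0.0041 over all tested genes. Fold changes refer to log2(FPKM + 0.1) and compare RNA levels relative to the library total, so more cells with a given RNA and more of that RNA per cell cannot be told apart.

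**Figure D1:**
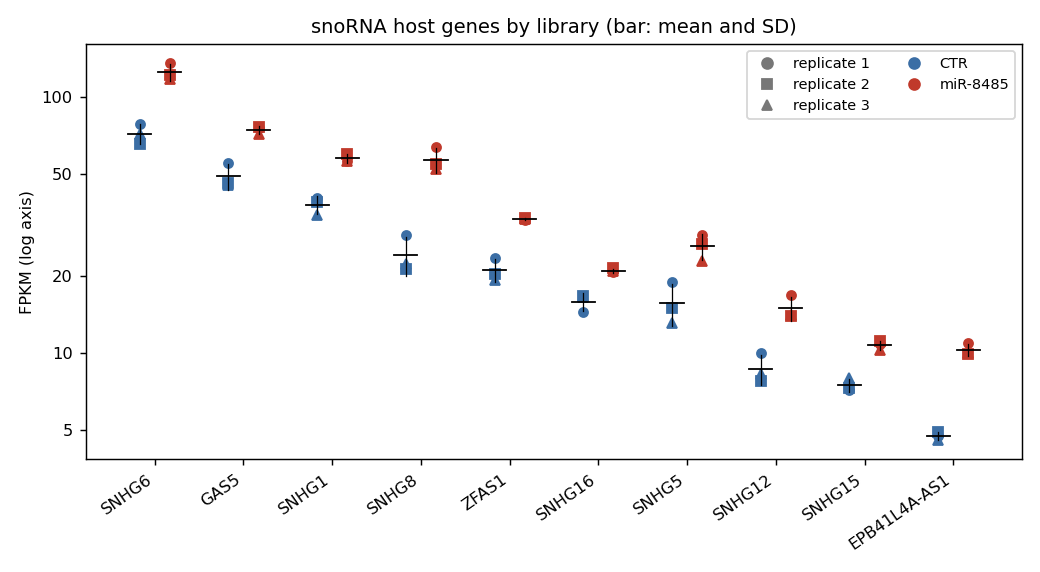
Level of each snoRNA host gene in FPKM (log axis) in the 3 CTR and 3 miR-8485 libraries, with a marker shape for each replicate and bars for mean and SD. In every gene the miR-8485 points lie above the CTR points, from SNHG6 at 65.8 to 136 FPKM down to EPB41L4A-AS1 at 4.54 to 10.9 FPKM.

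The hosts whose snoRNAs are of the box C/D class included the 3 with the highest levels and the 1 with the smallest change. SNHG6 on chromosome 8 (66921684 to 66926398, minus strand), the host of SNORD87, had the highest level per length. It was at 78.9, 65.8 and 71.7 FPKM in the CTR libraries, in replicate order, and at 136, 122 and 118 FPKM in the miR-8485 libraries. The lowest miR-8485 library was thus well above the highest CTR library, with a log2 fold change of 0.80 ± 0.08 (SE; limma, adjusted p = 1.3e-04).
GAS5 on chromosome 1 (173863900 to 173868882, minus strand), named for its accumulation in growth-arrested cells and known to bind the glucocorticoid receptor, came next in level. Its values were 55.5, 46.3 and 45.3 FPKM in CTR and 75.5, 76.8 and 71.6 FPKM in miR-8485. CTR replicate 1 was the highest of its group, and the groups did not overlap. The log2 fold change was 0.61 ± 0.08 (SE; limma, adjusted p = 4.7e-04), and 0.70 without CTR replicate 1.
SNHG1 on chromosome 11 (62851988 to 62855914, minus strand) carries a cluster of box C/D snoRNAs in its introns. It was at 40.5, 38.9 and 34.7 FPKM in CTR and at 56.5, 60.2 and 56.2 FPKM in miR-8485. The rise, 0.60 on the log2 scale ± 0.07 (SE; limma, adjusted p = 1.9e-04), was close to that of GAS5.

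ZFAS1 on chromosome 20 (49278178 to 49295738, plus strand), the host of the SNORD12 family, is transcribed away from ZNFX1. It was at 23.5, 20.4 and 19.3 FPKM in CTR and at 33.2, 33.6 and 33.4 FPKM in miR-8485. The 3 miR-8485 libraries were nearly equal, 33.4 ± 0.205 FPKM (SD, n = 3), while the CTR libraries spread more, 21.1 ± 2.18 FPKM (SD, n = 3). The log2 fold change was 0.67 ± 0.07 (SE; limma, adjusted p = 1.9e-04).
SNHG5 on chromosome 6 (85660950 to 85678748, minus strand), the host of SNORD50B, was at 18.9, 15.0 and 13.1 FPKM in CTR and at 29.0, 26.6 and 22.8 FPKM in miR-8485. Its replicates were the most uneven of the 10, and its standard error of 0.14 was the largest. The log2 fold change of 0.74 (adjusted p = 0.0029 from limma) was 0.89 without CTR replicate 1 and 0.62 without CTR replicate 3.
SNHG16 on chromosome 17 (76557766 to 76565348, plus strand), the host of SNORD1A, SNORD1B and SNORD1C, changed least. It was at 14.4, 16.7 and 16.5 FPKM in CTR and at 20.7, 21.4 and 20.8 FPKM in miR-8485. The groups were apart by a log2 fold change of 0.40 ± 0.06 (SE; limma, adjusted p = 0.0013). Here CTR replicate 1 was the lowest of its group, and without it the value was 0.34.

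The largest changes were those of SNHG8 and EPB41L4A-AS1, which host box H/ACA snoRNAs, as do SNHG15 and SNHG12. SNHG8 on chromosome 4 (118278709 to 118279823, plus strand), the host of SNORA24, rose 2.36-fold in mean level. It was at 29.0, 21.3 and 22.2 FPKM in CTR and at 64.2, 54.8 and 52.2 FPKM in miR-8485. Replicate 1 was the highest in both groups, and the log2 fold change was 1.24 ± 0.13 (SE; limma, adjusted p = 1.4e-04), or 1.38 without CTR replicate 1.
EPB41L4A-AS1 on chromosome 5 (112160526 to 112164276, plus strand), the host of SNORA13 and antisense to EPB41L4A, had the lowest level in CTR. Its values of 4.71, 4.89 and 4.54 FPKM in CTR and 10.9, 9.94 and 9.95 FPKM in miR-8485 were far apart relative to their spread. The log2 fold change was 1.10 ± 0.06 (SE) and its adjusted p of 9.7e-06 from limma was the smallest of the 10, on 275 to 654 fragments per library.
SNHG15 on chromosome 7 (44983023 to 44986961, minus strand), the host of SNORA9, was at 7.15, 7.31 and 7.97 FPKM in CTR and at 10.8, 11.1 and 10.2 FPKM in miR-8485. This was the second smallest rise, 0.51 on the log2 scale ± 0.06 (SE; limma, adjusted p = 3.1e-04).
SNHG12 on chromosome 1 (28578538 to 28583132, minus strand) hosts snoRNAs of both classes, SNORD99 with SNORA16A, SNORA44 and SNORA61. It was at 9.95, 7.74 and 8.24 FPKM in CTR and at 16.9, 14.0 and 14.0 FPKM in miR-8485, with replicate 1 highest in both groups. The log2 fold change was 0.79 ± 0.11 (SE; limma, adjusted p = 6.8e-04).

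In CTR, the order of levels per length was SNHG6, GAS5, SNHG1, SNHG8, ZFAS1, SNHG16, SNHG5, SNHG12, SNHG15 and EPB41L4A-AS1. The library ranges of neighbours overlapped for SNHG8 and ZFAS1, for SNHG16 and SNHG5, and for SNHG12 and SNHG15. In miR-8485, SNHG8 reached the range of SNHG1 (57.1 and 57.6 FPKM on average), EPB41L4A-AS1 reached that of SNHG15 (10.3 and 10.7 FPKM), and SNHG5 stood above SNHG16. In the order of changes, the 95% intervals of all neighbours overlapped. Those of SNHG8 (0.95 to 1.54) and EPB41L4A-AS1 (0.96 to 1.25) lay wholly above that of ZFAS1 (0.50 to 0.84). They also lay above those of GAS5, SNHG1, SNHG15 and SNHG16 (0.25 to 0.56). That of SNHG6 (0.61 to 0.99) lay wholly above only that of SNHG16. FPKM divides by the exon length that the table gives, which for SNHG1 was 3756 bases, 95.6% of the span of the gene, and for ZFAS1 2243 bases, 12.8% of it. Levels of hosts whose introns are annotated as exonic in some transcripts are therefore lower than they would be per length of the spliced RNA alone.

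The spread between replicates was shared by several host genes. CTR replicate 1 was the highest CTR library for 7 of the 10, and miR-8485 replicate 3 the lowest miR-8485 library for 6. The matching shares over all tested genes were not computed, so these counts cannot show whether the pattern is particular to the host genes. Relative to the CTR mean, the median of the 10 genes was 0.15, -0.042 and -0.084 on the log2 scale for CTR and 0.78, 0.68 and 0.62 for miR-8485, each in replicate order. The mitochondrial share was lowest in CTR replicate 1 and highest in miR-8485 replicate 1, and its part in these levels was not tested. Without CTR replicate 1 all 10 remained upregulated, with a median log2 fold change of 0.81.

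The table listed 19 further rows for noncoding snoRNA hosts, namely the other SNHG genes and DANCR, of which 12 reached a mean of 1 FPKM and were tested. Of these, 10 were upregulated, none was downregulated and all 12 had values above 0, with a median log2 fold change of 0.69. Among all 12349 tested genes, 29.1% were upregulated, 30.5% were downregulated and 6126 had values above 0. DANCR, a host of an H/ACA snoRNA that is known for restraining differentiation of progenitor cells, had a mean of 20.7 ± 0.809 FPKM (SD, n = 3) in the control libraries and of 58.1 ± 1.12 FPKM (SD, n = 3) with the mimic, which is a log2 difference of 1.48 (limma, adjusted p = 1.8e-06). SNHG19, covered by 150 to 706 fragments per library, rose by 1.81 on the log2 scale, from 29.6 ± 7.35 FPKM to 103 ± 15.7 FPKM (SD, n = 3 each). SNHG7 and SNHG3 followed in level, with log2 fold changes of 0.68 and 0.59. SNHG9 had the third largest rise, 1.26, but its groups overlapped, with 6.24, 2.01 and 1.504 FPKM in CTR and 7.58, 5.52 and 6.67 FPKM in miR-8485. Its adjusted p of 0.0468 in limma was over the threshold without any one of CTR replicates 2 and 3 or the miR-8485 replicates (0.071 to 0.134).
SNHG17 (log2 fold change 0.25) lost its call without any one of CTR replicates 2 and 3 or miR-8485 replicates 1 and 2 (adjusted p of 0.0596 to 0.0727 in limma). SNHG20 (0.63) lost it without any one of CTR replicates 2 and 3 or miR-8485 replicates 1 and 3 (0.0585 to 0.0729). SNHG25 and SNHG26, with 0.71 and 0.39, did not pass the threshold (adjusted p = 0.197 and 0.28 in limma), and the 95% interval of each included 0. Without CTR replicate 1, SNHG25 was past it (adjusted p = 0.0439 in limma). With that library left out, 11 of the 12 were upregulated, against 3561 of all 12349 tested genes. After rescaling to TPM, 7 of the 12 were upregulated, against 2614 of all 12349. Of the 7 rows below the filter, 3 were at 0 in every library and the highest value was 1.52 FPKM, for SNHG21.

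**Figure D2:**
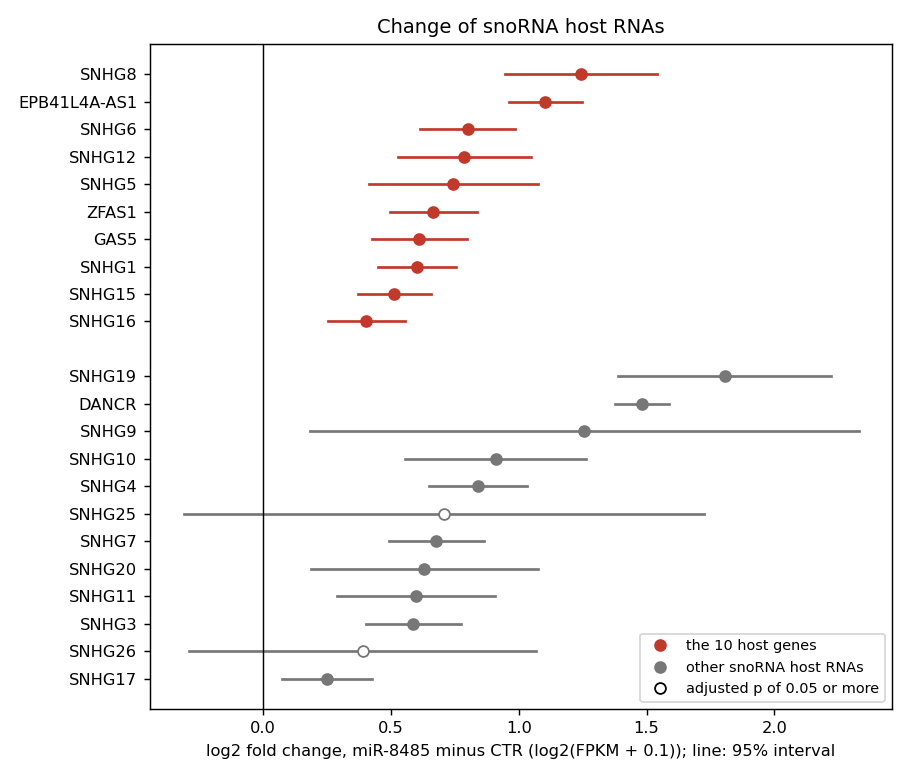
Log2 fold change of miR-8485 against CTR with its 95% interval for the 10 snoRNA host genes and the 12 other noncoding hosts that were tested, with open circles where the adjusted p from limma was 0.05 or more. The intervals of the 10 host genes all lie above 0, and those of SNHG25 and SNHG26 cross it.

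Other classes of genes give the scale for these changes. The 768 other long noncoding genes that were tested, with DANCR, the genes under an SNHG symbol and the 10 host genes left out, had a median log2 fold change of 0.44. Of these, 320 were upregulated (41.7%) and 82 downregulated (10.7%), against 29.1% and 30.5% of all tested genes. With the length trend removed, their median was 0.29, with 269 upregulated and 111 downregulated. Each of the 10 host genes except SNHG16 lay above their median, and with the length trend removed SNHG16 did too (0.445). The list may hold hosts that the table gives under other symbols, such as LRRC75A-AS1 (0.82), now named SNHG29 and picked out after its value was seen. Of 85 cytosolic ribosomal protein genes, 78 were upregulated and none was downregulated, with a median of 0.47. Relative to the CTR mean, their library medians were 0.13 in CTR replicate 1, -0.078 and -0.047 in the other CTR libraries and 0.43 to 0.53 in miR-8485, so CTR replicate 1 was again the highest of its group.
Protein-coding genes that carry a snoRNA within their span on the same strand, ribosomal protein genes left out, were called in both directions. Of 111 tested, 31 were upregulated (27.9%) and 41 downregulated (36.9%), with a median of -0.079. After rescaling to TPM, 23 were upregulated and 54 downregulated, against 2614 and 4723 of all 12349 tested genes. With the length trend removed, 39 were upregulated and 38 downregulated. The 4 highest were EEF2, the translation elongation factor, which rose by 0.70 on the log2 scale (0.39 under quantile normalization), EEF1B2, a subunit of its partner factor, with 0.27, ATP5F1B, a subunit of ATP synthase, with 0.16, and the chaperone gene HSPA8, which did not pass the threshold (-0.10, adjusted p = 0.0916 in limma) except without CTR replicate 1 and under 2 scalings, quantile and TPM. With values rescaled to TPM, ATP5F1B and EEF1B2 lost their calls (adjusted p = 0.506 and 0.0944 in limma), and the value of ATP5F1B turned to -0.036 under quantile normalization. The largest rises were those of CSKMT (1.30), CCNB1IP1 (1.04) and ZBED3 (0.96), and the largest falls those of IARS (-1.43), AP1G1 (-1.40) and OSCP1 (-0.87). No test of the difference between these classes was made.

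**Figure D3:**
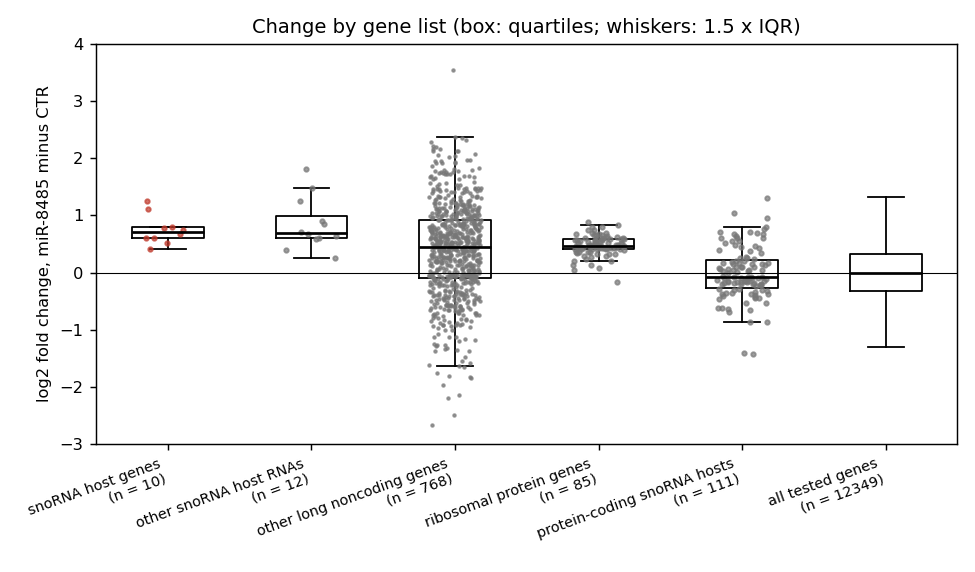
Log2 fold change of miR-8485 against CTR by gene list, with 1 point per gene (no points for all 12349 tested genes), boxes for the quartiles and whiskers of the usual length. The 10 snoRNA host genes lie between 0.40 and 1.24, the ribosomal protein genes centre on 0.47, and the protein-coding snoRNA hosts centre near 0, at -0.079.

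The snoRNAs themselves were hardly measured. The table listed 23 snoRNA genes inside 9 of the 10 hosts on the same strand, with lengths of 69 to 137 bases, and 18 of them were at 0 in every library. The other 5 were SNORD99 in SNHG12, SNORD1B in SNHG16, SNORD12B and SNORD12C in ZFAS1 and SNORA13 in EPB41L4A-AS1. The largest value was 22 fragments, for SNORD12B in CTR replicate 1, against 2 or 3 in the other libraries. Summed over the 23, the CTR libraries held 32, 11 and 16 fragments and the miR-8485 libraries 9, 24 and 19, so the groups overlapped while every host rose. With so few fragments, no change of the snoRNAs was detectable. How fragments that lie in both a snoRNA and its host were counted is not given in the sources used here.

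Apart from snoRNAs and other small RNAs, the genes that overlap a host or start within 1000 bases of it lay on the opposite strand in all 10 pairs found. Whether the counting used strand is not given in the sources used here, and if it did not, reads of overlapping antisense pairs cannot be told apart. Of these neighbours, 3 were tested. ZNFX1, which starts 248 bases from ZFAS1 on the other strand and overlaps it by 249 bases, encodes a helicase-like antiviral factor and rose with it. It went from 7.25 to 11.1 FPKM on average, a log2 fold change of 0.62 ± 0.09 (SE; limma, adjusted p = 6.4e-04). SLC3A2, the heavy chain of amino acid transporters, starts 188 bases from SNHG1 without overlap, and its log2 fold change of 0.21 was past the threshold (adjusted p = 0.0102 in limma) but not after rescaling to TPM (0.09, adjusted p = 0.219). TRNAU1AP, whose end overlaps that of SNHG12 by 8 bases, fell by 0.29 on the log2 scale, with an adjusted p of 0.0049 in limma. The other 7 neighbours were below 1 FPKM on average. EPB41L4A, whose span holds all 3751 bases of EPB41L4A-AS1, was at 0.602 FPKM in CTR and 0.482 FPKM in miR-8485, with overlapping groups, while the antisense host rose.

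Genes that act with the host RNAs did not share one direction. Over all tested genes, 29.1% were upregulated and 30.5% downregulated. The core proteins of box C/D particles split: SNU13 (log2 fold change 0.33) and NOP56 (0.25) were upregulated, NOP58 fell by 0.29 on the log2 scale, and the methyltransferase gene FBL (-0.10) did not pass the threshold (adjusted p = 0.257 in limma), but was called as a fall after rescaling to TPM (-0.21). Of the box H/ACA core, 3 of 4 genes were upregulated, NHP2 (0.58), NOP10 (0.36) and the pseudouridine synthase gene DKC1 (0.17), while GAR1 had -0.054. NOP10 was not past the threshold with the length trend removed (0.11, adjusted p = 0.0967 in limma), and DKC1 was not after rescaling to TPM (0.06, adjusted p = 0.439). GAR1 was called as a fall after rescaling to TPM (-0.17) and with the length trend removed (-0.18). Of 9 tested genes for snoRNP assembly, RUVBL1 (0.28) and ZNHIT6 (0.24) were upregulated and NUFIP1 (-0.45) and RPAP3 (-0.23) downregulated. After rescaling to TPM, 1 was upregulated and 5 were downregulated, against 2614 and 4723 of all 12349 tested genes. Of RUVBL1, ZNHIT6, NUFIP1 and RPAP3, only RUVBL1 and NUFIP1 kept their calls with each library left out in turn. ZNHIT6 lost its call without any library except miR-8485 replicate 3 (adjusted p of 0.0877 to 0.143 in limma), and RPAP3 without miR-8485 replicate 1 or 3 (0.0715 and 0.0737).

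Of 9 factors of nonsense-mediated decay, none was upregulated and 2 were downregulated, against 29.1% and 30.5% of all tested genes. With the length trend removed, 1 of the 9 was upregulated and 2 were downregulated, against 3612 and 3703 of all 12349 tested genes. There UPF3A had the highest value of the 9, 0.23. SMG8 and SMG9, which form a complex with the kinase SMG1, fell by 0.39 and 0.44 on the log2 scale (adjusted p = 0.0014 and 0.0015 from limma). The helicase gene UPF1 (-0.043), UPF2 (-0.038), SMG1 (-0.039), SMG5 (-0.039) and the endonuclease gene SMG6 (-0.033) had values near 0. UPF3A (0.18) and UPF3B (0.12) were not past the threshold, UPF3A with an adjusted p of 0.0622 in limma and of 0.0256 without miR-8485 replicate 2. UPF3B was past it without CTR replicate 1 (adjusted p = 0.0289 in limma). In the exon junction complex, MAGOH fell by 0.33 on the log2 scale, RBM8A (0.15) was upregulated only narrowly (adjusted p = 0.0412 in limma, 0.0681 to 0.127 without any library except CTR replicate 1), and EIF4A3, CASC3 and MAGOHB were not past the threshold. MAGOHB was past it without CTR replicate 3 or miR-8485 replicate 1 (adjusted p = 0.0457 and 0.0382 in limma) and after rescaling to TPM (-0.37), and CASC3 with the length trend removed (0.13). RBM8A lost its call after rescaling to TPM (0.04).

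Among 10 genes that control TOP RNAs through mTORC1, 3 were upregulated and 4 downregulated, against 29.1% and 30.5% of all tested genes. The upregulated genes were AKT1S1 (0.82), which encodes an inhibitory subunit of mTORC1, and EIF4EBP1 (0.30) and EIF4EBP2 (0.36), which encode repressors of cap-dependent translation. EIF4EBP1 was not past the threshold with the length trend removed (0.08, adjusted p = 0.112 in limma). The downregulated genes were RPS6KB1 (-0.60) and RPS6KB2 (-0.48), which encode the S6 kinases, RHEB (-0.53), the activating GTPase, and RPTOR (-0.39), the scaffold. RPTOR lost its call without any library except CTR replicate 1 (adjusted p of 0.0547 to 0.0794 in limma). MTOR (0.051), MLST8 (0.11) and LARP1 (-0.018), a protein that binds the TOP start, did not pass the threshold, although each did under 1 of the alternatives. These are RNA levels, and the activity of mTORC1 was not measured.

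**Figure D4:**
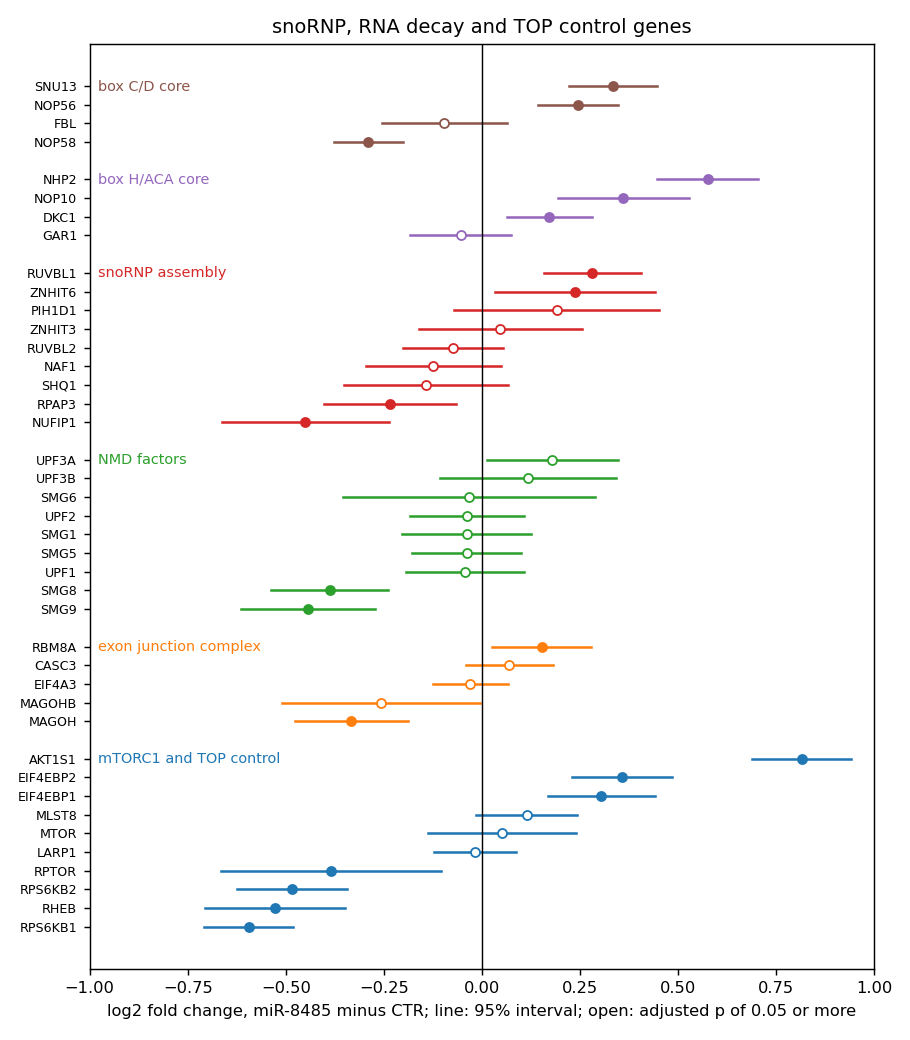
Log2 fold change of miR-8485 against CTR with its 95% interval for the tested genes of snoRNP cores, snoRNP assembly, nonsense-mediated decay (NMD), the exon junction complex and TOP control, with open circles where the adjusted p from limma was 0.05 or more. Genes of each list lie on both sides of 0, from RPS6KB1 at -0.60 to AKT1S1 at 0.82.

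The rise of the 10 host genes held under each alternative that was run. Rescaling to TPM, which moved the median of all tested genes to -0.12, gave the lowest median of the 10, 0.59, with 0.29 for SNHG16 and 1.13 for SNHG8. Removing the trend against gene length lowered the short genes SNHG6 and SNHG8 most, to 0.59 and 1.012, with a median of 0.59. The largest adjusted p of any of the 10 in limma was 0.0137, for SNHG5 when all 31768 genes above 0 were tested.

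**Figure D5:**
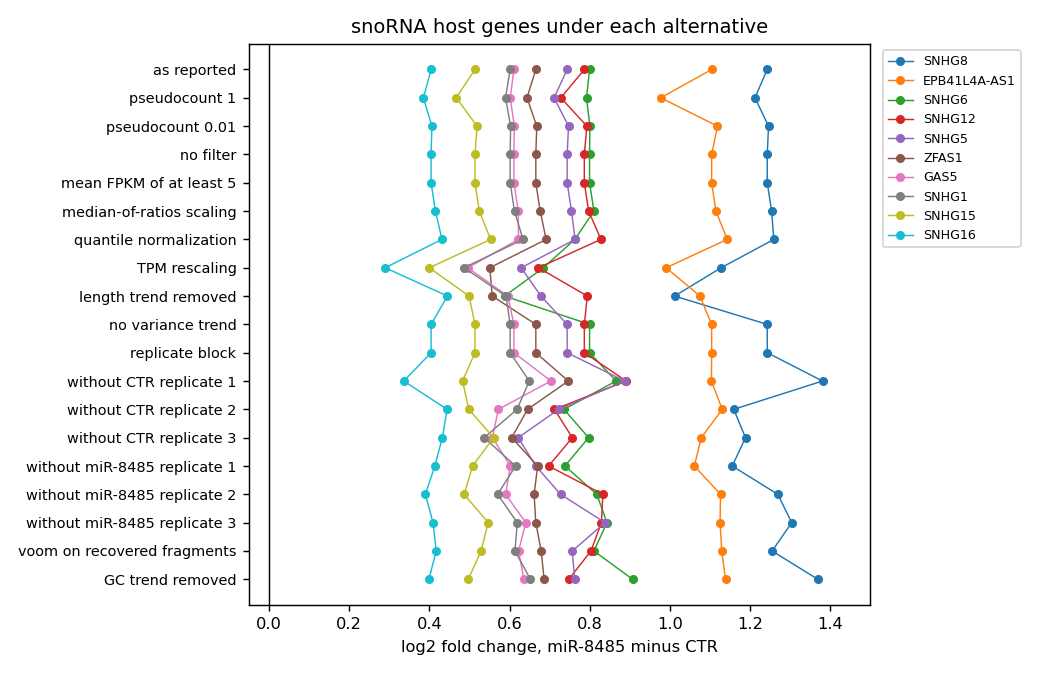
Log2 fold change of each snoRNA host gene (lines) as reported and under each of 18 alternatives (rows). All values lie above 0, from 0.29 to 1.38, and the 2 genes with the largest changes as reported, SNHG8 and EPB41L4A-AS1, keep the 2 highest places throughout.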

How the data were processed

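RNA-seq of 6 HCT116 libraries was analysed, 3 CTR and 3 miR-8485, grouped by the sample labels. The authors trimmed reads with fastp, aligned them to hg38 with HISAT2 2.0.5, counted fragments per gene with featureCounts 1.5.0-p3 and deposited FPKM values. Versions are per the labels, and the annotation release and strand setting are not given in the sources used here. In each library, 100% of values above 0 were whole multiples (tolerance 0.05) of 1 fragment, which gave the fragments per gene. FPKM were tested as log2(FPKM + 0.1) by a two-sided moderated test in limma 3.58.1 (R 4.3.3), with the prior variance following expression and Benjamini-Hochberg adjustment over 12349 genes whose mean FPKM reached 1. Calls were made at adjusted p below 0.05. Genes below this filter were read from the fit of the 31768 genes above 0. On simulated counts for the comparison of miR-8485 with CTR (12265 genes), limma recovered 147 of 195 changed genes with 8 false calls. The simulation had the same dispersion for all genes, no outlying library and far fewer changed genes than were called here. Its figures therefore do not measure performance on these data. The host genes, the related gene lists and the tests were chosen with earlier results of these data known. Named were all 10 host genes and the tested genes of the lists for snoRNPs, decay and TOP control (1 gene of the decay list is not reported here), and, for other hosts, the 4 highest in level and up to 3 of the largest called changes in each direction, with further noncoding hosts named after their values were seen. Alternatives were other pseudocounts (1 and 0.01), filters (none, or a mean FPKM reaching 5), scalings (median of ratios, quantile, TPM), removal of the length trend, no variance trend, a replicate block, each library left out, and voom on recovered fragments. Removal of the trend against GC content, known for 12298 tested genes, was chosen after seeing the data. Promoters came from RefSeq, transcripts from GENCODE release 44. Python 3.11.15 with pandas 2.3.3 was used. The study's other experiments were not analysed here.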

Additional observations from a re-analysis of the deposited data

How the results depend on the processing

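All 180 values of the 10 snoRNA host genes under the 18 alternatives kept their direction and an adjusted p under 0.05, so the count stayed at 10 upregulated and 0 downregulated. Among 66 other named genes, 1079 of 1171 values stayed on their side of the threshold, 61 were no longer past it, 30 came to be past it, and 1 called value turned, ATP5F1B under quantile normalization (-0.036). Of the 1079, 22 values had the other sign, in 11 genes called neither as reported nor under that alternative. The count of other noncoding hosts called upregulated was 6 of 6 tested with a mean FPKM of at least 5, where fewer genes were tested, against 10 of 12. Of all 6878 genes tested at that filter, 2303 were upregulated, against 3593 of 12349. Rescaling to TPM changed the split over all tested genes from 3593 upregulated and 3769 downregulated to 2614 and 4723. Voom on recovered fragments gave 3920 and 3895. The replicate numbers were shared by both groups, and the sources used here do not say whether they pair the libraries. Over all tested genes, the correlations of deviations between same-numbered libraries were 0.067, 0.033 and -0.064. These values, from 3 libraries per group, cannot show whether the libraries were paired. With the replicate number as a block, all 10 host genes were upregulated with the same log2 fold changes and a largest adjusted p of 0.0019 in limma. SNORD-type genes and hosts below 1 FPKM had too few fragments for a change to be detectable.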
